A study of Mus musculus with 2 samples.

Results

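The respiratory chain subunit genes, taken by their symbols and grouped by complex, were described across adipocyte precursor states. The symbol rule (prefixes mt-Nd, mt-Co, mt-Cytb, mt-Atp, Ndufa, Ndufb, Ndufc, Ndufs, Ndufv, Sdha to Sdhd, Uqcr, Cyc1, Cox4i, Cox5, Cox6, Cox7, Cox8 and Atp5) found 101 of the 27998 genes in the table. Of these, 97 are subunits, 13 encoded by mitochondrial DNA and 84 by nuclear genes. The other 4 (Sdhaf1, Sdhaf2, Sdhaf3 and Sdhaf4) are assembly factors of complex II that the Sdha prefix takes in, and they are kept apart from the subunits. Complex I had 7 mitochondrially encoded and 36 nuclear genes, complex II 4 nuclear genes, complex III 1 and 9, complex IV 3 and 20, and complex V 2 and 15. Ndufa4, whose protein is a subunit of complex IV in spite of its name, and its paralog Ndufa4l2 were put with complex IV.

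Complexes I to IV pass electrons from NADH and succinate to oxygen and, except for complex II, pump protons across the inner mitochondrial membrane, and complex V (ATP synthase) uses the proton gradient to make ATP. Complexes I, III, IV and V join subunits made in the cytosol from nuclear genes with subunits made inside mitochondria, while complex II is wholly nuclear-encoded and is also an enzyme of the citric acid cycle. Some nuclear subunits of complex IV exist as isoforms from separate genes that differ between tissues, such as heart and muscle, lung or testis forms. White adipocytes carry fewer mitochondria than brown adipocytes, and mitochondrial biogenesis is known to accompany the differentiation of precursors.

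Adipocyte precursor cells were flow-sorted from subcutaneous fat of wild-type mouse pups aged 12 days that had been cross-fostered to dams whose milk fat had a high or a low n-6/n-3 ratio of polyunsaturated fatty acids. The study has 1 sample for each milk (high n-6/n-3, low n-6/n-3), with 3000 sorted cells stated as loaded per condition on the 10x Genomics 3′ platform; whether a sample pooled several pups was not stated in the sources used here. The protocols speak both of freezing the cells and of loading them fresh. The deposited table joined both samples, with barcodes ending in 1 (library 1) or 2 (library 2), and no label ties either number to a milk. The libraries are therefore given side by side, no difference between milks is stated, and no value has a replicate of a condition, so no test was made.

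Library 1 held 3321 barcodes and 42092816 UMIs (unique molecular identifiers, each counting 1 captured RNA molecule), and library 2 held 3584 and 43491307. After filtering, 3301 and 3572 cells remained, with medians of 12962 and 12109 UMIs. The libraries shared 17 barcode sequences. Cells were grouped without using any of the member genes, and groups were named from marker genes. The Dpp4-type progenitor-like cells (3008 cells, clusters 0 and 3), the committed preadipocyte-like cells (1773), the F3-type stromal-like cells (653) and the cycling-like cells (278) were named states. Of 12 Dpp4-type markers, 3 were raised in cluster 0 (Bmp7, Limch1 and Akr1c18) and 4 in cluster 3 (Pi16, Bmp7, Dact2 and Akr1c18). Each cluster was set against all other cells, the other Dpp4-type cluster included, and Dpp4 itself was raised in neither. Cluster 2 (837 cells, led by Smpd3, Daglb, Adm and Gas7, with the stress gene Hspa1a among its leading genes) and cluster 6 (210 cells, led by Cilp, C1qtnf3 and Eln) stayed unnamed. Cluster 6 shared markers with the F3-type cells: 3 of 7 F3-type markers were raised in it (Clec11a, Fmo2 and Mgp). That list summed to 362 CPM in cluster 6, 769 CPM in F3-type cells and between 92.7 and 173 CPM in the other precursor groups. Pdgfra, which marks adipocyte precursors, lay between 104 and 173 CPM (UMIs of a gene scaled to a total of 1000000 UMIs in the same cells) in these 6 groups. The remaining cells were 49 endothelial-like, 46 macrophage- or monocyte-like and 19 erythroid-like cells, the last all in library 1. Pdgfra was at 29.2, 83.0 and 34.6 CPM in these 3 groups. The list of precursor genes (Pdgfra, Ly6a, Cd34, Dcn, Col1a1 and Pdgfrb) summed to 6408, 13566 and 7904 CPM there. In the 6 precursor groups it summed to between 24945 and 34201 CPM. Of these genes, Pdgfrb was higher in endothelial-like cells (121 CPM) than in any precursor group (up to 39.9 CPM). The part of precursor RNA in the values of the 3 groups was not tested. Sox10, which defines Schwann cells, had no UMI in the F3-type cells. The summed macrophage list was between 20.9 and 24.6 CPM and the summed endothelial list between 28.2 and 34.6 CPM in the 6 precursor groups.

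Over all kept cells, the 84 nuclear genes summed to 19197 CPM and the 13 mitochondrially encoded genes to 18074 CPM. Among the nuclear genes 79 reached 10 CPM in at least 1 state, with a median over all 84 of 180 CPM. Cox4i1, the common form of the largest nuclear subunit of complex IV, was the highest nuclear gene at 1018 CPM. Since each UMI is 1 RNA molecule read from its 3′ end, CPM values of different genes count molecules and are not divided by length, but capture can still differ between transcripts.

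Within complex I the nuclear genes summed to 5735 CPM, from 14.6 CPM for Ndufs1, the largest iron-sulfur subunit, to 477 CPM for Ndufa2. Complex II was the least abundant at 324 CPM, with Sdhb, its iron-sulfur subunit, at 125 CPM and Sdha, the flavoprotein that oxidises succinate, at 59.6 CPM. Nuclear complex III genes summed to 2064 CPM, from Uqcrc2, a core subunit, at 52.5 CPM to Uqcrh, the hinge subunit, at 639 CPM. Nuclear complex IV genes also summed to 5735 CPM, but from 0 UMIs for Cox7b2 to the level of Cox4i1. Nuclear complex V genes summed to 5340 CPM, from Atp5g3 (a subunit c gene) at 188 CPM to Atp5e (subunit epsilon) at 807 CPM.

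The mitochondrially encoded genes also differed widely in level. In all kept cells mt-Atp6 had 3932 CPM, mt-Co3 3557 CPM, mt-Co1 2646 CPM, mt-Nd1 2061 CPM, mt-Cytb 1797 CPM, mt-Co2 1637 CPM, mt-Nd4 1129 CPM and mt-Nd2 776 CPM. Lower were mt-Nd3 at 270 CPM, mt-Nd5 at 121 CPM, mt-Atp8 at 72.2 CPM and mt-Nd4l at 70.3 CPM, and mt-Nd6, the 1 gene of these on the light strand, was lowest at 5.23 CPM. The reading frames of mt-Atp8 and mt-Atp6 (chrM:7766-7969 and chrM:7927-8607, mm10) overlap, as do those of mt-Nd4l and mt-Nd4, and the sources used here do not give how such reads were shared, so the low values of mt-Atp8 and mt-Nd4l are uncertain.

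**Figure D1:**
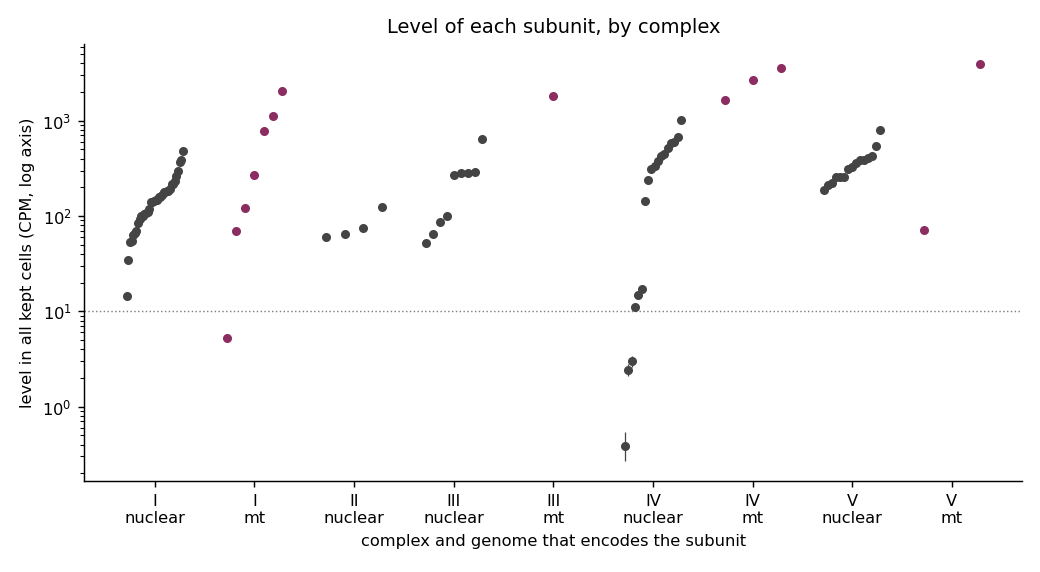
Level of each subunit in all kept cells (CPM, log axis), by complex and by the genome that encodes it; points are genes, bars are 95% exact Poisson intervals (mostly smaller than the points), and the dotted line marks 10 CPM. Cox7b2 and Cox8c, with 0 UMIs, are not drawn. Most nuclear subunits lie within 1 order of magnitude around 180 CPM, and the points under the line are Cox6a2, Cox4i2 and Cox8b of complex IV and mt-Nd6 of complex I.

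Across the 6 precursor groups the subunits varied little. The ratio of a gene's highest to its lowest group had a median of 1.27 over the 79 nuclear subunits measured, against 1.55 over 7763 genes, and 68 of the 79 (86.1%) stayed under 1.5-fold, against 44.2% of all genes. Among genes of at least 50 CPM the medians were 1.26 for 74 nuclear subunits and 1.41 for 2278 genes. The sets of all genes include those that the groups were made and named from, and the subunits were left out of the grouping. A wider spread over all genes is thus partly set by how the groups were made, and the same holds for the shares of all genes given below. For the 12 mitochondrially encoded genes measured the median was 1.10, and all 12 stayed under 1.5-fold; mt-Co2 was narrowest, between 1543 CPM in F3-type and 1647 CPM in Dpp4-type cells. The widest were Ndufa4l2 (5.60-fold, 33.5 CPM in F3-type to 5.99 CPM in cluster 2), Cox6b2 (4.48-fold, 43.0 CPM in cycling-like cells to 9.60 CPM in cluster 6) and Ndufs1 (2.07-fold). Sdhd (1.65-fold), Ndufb8 (1.65-fold), Cox7a2 (1.61-fold), Cox7a1 (1.59-fold) and Sdhb (1.56-fold) followed. Cycling-like cells were highest for each of these 5 except Cox7a1, which was highest in cluster 2 at 12.2 CPM.

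To see whether genes of the same complex that differed between states shared promoter letters, the RefSeq promoters (GRCm38.p6, the same assembly as mm10, 250 bases before to 50 after the start) of 3 complex II genes are shown. Sdhb (chr4:140961021-140961320, plus strand) and Sdhd (chr9:50603800-50604099, minus strand) were called lower (the rule is given with the first comparison) in 3 of the precursor groups against Dpp4-type cells, and Sdha (chr13:74350191-74350490, minus strand) was not called lower in any. Each is printed 5′ to 3′ on the gene's strand, in lower case, with matches to the searched motifs in capitals, and without regard to overlap between motifs. The motifs were CATGCGC (of the type bound by NRF1), CCGGAAG (the core bound by ETS factors such as GABP), AAGATGG (of the type bound by YY1) and ACGTG (the core of hypoxia response elements), on either strand.
Sdhb: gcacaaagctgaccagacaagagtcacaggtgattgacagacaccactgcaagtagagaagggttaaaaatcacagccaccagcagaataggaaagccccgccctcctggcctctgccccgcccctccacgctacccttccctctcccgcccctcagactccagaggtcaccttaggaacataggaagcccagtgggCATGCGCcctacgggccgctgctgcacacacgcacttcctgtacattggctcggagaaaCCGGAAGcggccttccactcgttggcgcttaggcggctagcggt
Sdhd: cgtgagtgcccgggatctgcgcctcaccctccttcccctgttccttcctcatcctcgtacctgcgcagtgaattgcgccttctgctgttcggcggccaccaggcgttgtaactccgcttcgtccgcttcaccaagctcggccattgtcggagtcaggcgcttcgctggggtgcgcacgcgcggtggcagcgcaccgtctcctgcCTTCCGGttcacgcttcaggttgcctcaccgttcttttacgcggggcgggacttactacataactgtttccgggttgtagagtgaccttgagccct
Sdha: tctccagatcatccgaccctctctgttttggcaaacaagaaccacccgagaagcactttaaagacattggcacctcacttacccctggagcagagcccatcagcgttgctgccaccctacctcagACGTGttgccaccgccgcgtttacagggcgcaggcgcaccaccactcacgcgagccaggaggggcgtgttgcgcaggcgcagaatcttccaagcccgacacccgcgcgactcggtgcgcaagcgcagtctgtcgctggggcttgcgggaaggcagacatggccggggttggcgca
The Sdhb promoter held CATGCGC and CCGGAAG as written, the Sdhd promoter held CCGGAAG on the opposite orientation, read here as its reverse complement, and the Sdha promoter held ACGTG alone. Sdhc has no entry in the table. Promoters were found for 68 of the 84 nuclear genes (73 promoters). CATGCGC was present in 17.8% of these 73, against 3.91% of all 32851 promoters and 7.38% of those of genes measured here. CCGGAAG was present in 21.9%, against 8.86% and 18.2%, AAGATGG in 15.1%, against 6.34% and 7.52%, and ACGTG in 24.7%, against 19.6% and 26.6%. These are letters in a window and do not show that a factor was bound.

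The committed cells were named from markers such as Pparg, Lpl and Col15a1 (the list summed to 5466 CPM against 1064 CPM in Dpp4-type cells), and Dpp4-type cells lie upstream of them in current models of adipogenesis. The comparison asked whether the respiratory chain genes differed between the states. Sdhb and Sdhd were lower in committed cells, Cox6b2, Ndufa4 and Ndufs8 were higher, and no other nuclear subunit of at least 10 CPM passed the fold used in both libraries. With no level minimum 5 were higher, the other two being Cox8b and Cox4i2. A gene was called where it differed by at least 1.2-fold in the same direction in both libraries and had at least 10 CPM in 1 of the sums compared. Of 79 nuclear subunits, 3 were called higher, where 13.6% of all 6892 genes were, and 2 lower, where 25.9% of all genes were. The shares of the subunits called (3.797% and 2.53%) were below those of all genes in both directions. The median log2 ratio was 0.01 over the nuclear subunits (0.01 in each library), against -0.11 over all genes, and 0.05 over the mitochondrially encoded genes (0.03 and 0.06), none of which was called. TMM scaling (edgeR) moved the median of all genes by 0.07 and gave 5 subunits higher and 2 lower, where 17.1% and 19.0% of all genes were called. DESeq2 size factors moved it by 0.12 and gave 8 higher and 1 lower, where 19.0% and 16.5% of all genes were called, and Sdhb then had a log2 ratio of -0.30 and was under the fold in 1 library. At a clustering resolution of 1, committed cells had 1 subunit higher and 12 lower, with a median of -0.09. That clustering named 685 cells Dpp4-type in place of 3008 and 1145 cells committed in place of 1773. The share of all genes called was not computed there.

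Sdhb (chr4:140961203-140979193) was at 139 CPM in Dpp4-type cells of each library, and at 108 and 100.2 CPM in committed cells of libraries 1 and 2. Its log2 ratio was -0.42 (95% counting interval -0.49 to -0.35). Sdhd (chr9:50596357-50603812), which anchors the complex in the membrane and binds ubiquinone, was at 83.4 and 83.6 CPM in Dpp4-type cells and at 61.2 and 55.0 CPM in committed cells, a log2 ratio of -0.53 (-0.62 to -0.43). For both genes the libraries of the same state lay closer together than the states did. The other subunits were not called: Sdhc, the other membrane anchor, was at 62.5 and 63.6 CPM in Dpp4-type and 66.4 and 60.6 CPM in committed cells, and Sdha had a log2 ratio of -0.14 (-0.24 to -0.03), below 0 by its counting interval but under the fold. The median over the 4 subunits was -0.28. Among the assembly factors, Sdhaf1, which serves iron-sulfur cluster insertion into Sdhb, was lower (18.1 CPM in Dpp4-type, 12.2 CPM in committed cells, log2 ratio -0.56), as was Sdhaf4 (52.6 and 40.9 CPM, -0.36), which acts on Sdha. Sdhaf2, which adds the flavin to Sdha, had 15.6 and 14.97 CPM in Dpp4-type cells and 14.4 and 12.6 CPM in committed cells, and Sdhaf3 stayed under 10 CPM in both states.

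In complex IV, 2 of 15 nuclear genes were called higher in committed cells, a share of 13.3% beside 13.6% of all genes, and 0 lower. Their median log2 ratio was 0.11, against -0.11 over all genes, and 13 of the 15 were above 0. Ndufa4 (chr6:11900292-11907497) was at 343 and 346 CPM in Dpp4-type cells and at 439 and 429 CPM in committed cells, a log2 ratio of 0.33 (0.29 to 0.37). Cox6b2 (chr7:4751792-4753094), the testis-type form of subunit 6B, was at 12.5 and 12.4 CPM and at 18.5 and 25.8 CPM, a log2 ratio of 0.84 (0.65 to 1.02). The committed values of Cox6b2 differed between the libraries, and both lay above both Dpp4-type values. Ndufs8 (chr19:3908863-3912774), an iron-sulfur subunit of complex I, was at 48.5 and 48.6 CPM and at 58.3 and 58.7 CPM, a log2 ratio of 0.27 (0.16 to 0.38). Complexes I, III and V had medians of 0.01, 0.01 and -0.04.

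**Figure D2:**
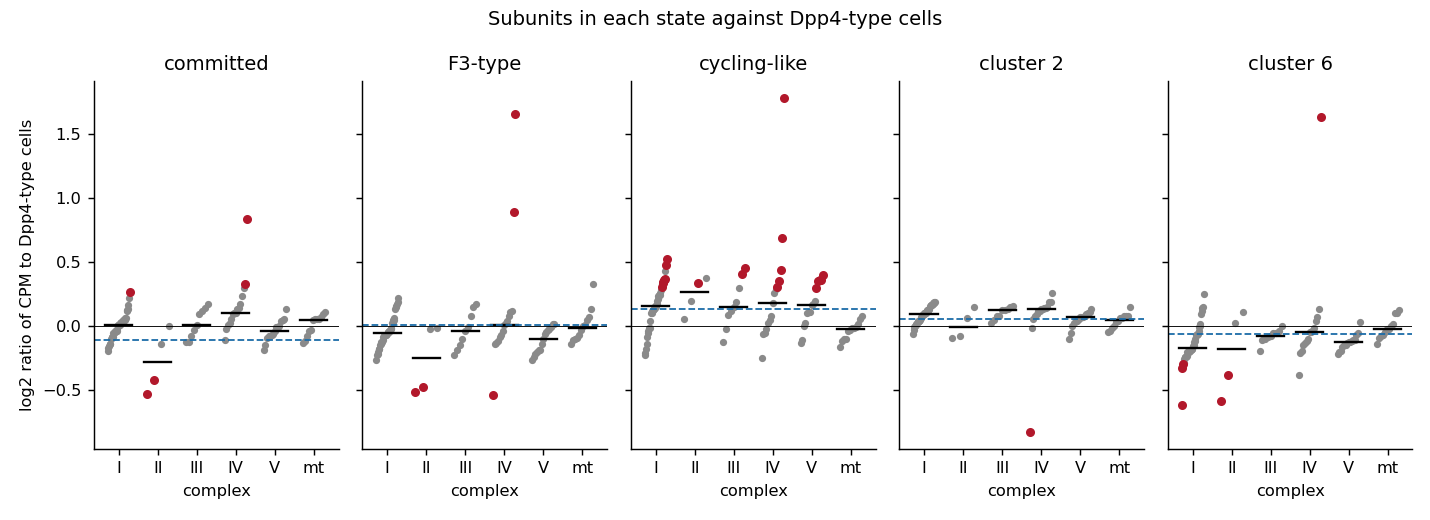
Log2 ratio of CPM to Dpp4-type cells for each subunit measured, in 5 precursor groups; I to V are nuclear genes by complex, mt the mitochondrially encoded genes. Red points passed 1.2-fold in both libraries, black bars are medians, and the dashed line is the median of all genes. Sdhb and Sdhd are the red points of complex II in committed, F3-type and cluster 6 cells. The cycling-like panel has 20 red points, all above 0 by CPM, where 27.1% of all genes were called higher. With TMM scaling 3 subunits were higher and 5 lower there, beside 14.4% and 20.1% of all genes.

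In F3-type cells, Sdhb and Sdhd were lower again and Ndufa4l2 and Cox6b2 were higher. All comparisons here share the Dpp4-type cells as reference, so a value that is unusual there enters each of them. Of 79 nuclear subunits, 2 were called higher, against 16.3% of 7081 genes, and 3 lower, against 14.2%. The median was -0.05 for the nuclear subunits (0.01 for all genes) and -0.01 for the mitochondrially encoded genes, with none called. With TMM scaling 2 subunits were called higher and 6 lower, where 13.6% and 17.6% of all genes were called. At a clustering resolution of 1, 20 subunits were called lower, and the share of all genes was not computed. That clustering named 685 cells Dpp4-type in place of 3008 and 418 cells F3-type in place of 653, so both sides of the ratio changed. Sdhb was at 101 and 99.0 CPM in F3-type cells of libraries 1 and 2 (log2 ratio -0.47, -0.59 to -0.36) and Sdhd at 59.3 and 58.2 CPM (-0.51, -0.66 to -0.36). Both were close to their levels in committed cells, while Sdha (log2 ratio -0.01) and Sdhc (-0.02) were at the Dpp4-type level within their intervals. Cox7a1, the heart and muscle form of subunit 7A, was at 6.49 and 8.80 CPM in F3-type cells against 10.6 and 11.5 CPM (-0.53, -0.97 to -0.12), from 54 UMIs in F3-type cells. Cox6b2 was at 21.5 and 24.97 CPM (0.89, 0.63 to 1.15), above both Dpp4-type values. Complex V had 13 of 15 genes below 0, with a median of -0.10 and none called.

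Ndufa4l2 (chr10:127514967-127517154), a hypoxia-inducible relative of Ndufa4, was at 39.8 and 27.2 CPM in F3-type cells and at 12.2 and 9.19 CPM in Dpp4-type cells, a log2 ratio of 1.66 (1.42 to 1.89). It was also high in cluster 6, at 37.6 and 25.2 CPM (log2 ratio 1.64, 1.29 to 1.98), and low in cluster 2, at 7.29 and 4.24 CPM (-0.82, -1.23 to -0.44). Library 1 was above library 2 in each of these groups, yet the F3-type and cluster 6 values of either library lay above every value of Dpp4-type, committed, cycling-like and cluster 2 cells. Endothelial-like cells had more, at 219 CPM, in a group where the mural list (pericyte and smooth muscle genes) summed to 1328 CPM. That list summed to 40.8 CPM in F3-type cells, 32.4 CPM in committed cells, 13.05 CPM in Dpp4-type cells and 10.4 CPM in cluster 6. Of the F3-type sum 20.8 CPM was Notch3, which had 20.2 CPM in committed cells, and 3 of the 7 genes (Myh11, Tagln and Mcam) had no UMI in cluster 6; the part of mural RNA in the Ndufa4l2 values was not tested. Ndufa4l2 overlaps Shmt2 on the opposite strand; Shmt2 was between 13.8 and 18.5 CPM in the 6 groups.

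In cluster 6, 5 nuclear subunits were called lower, against 14.4% of 6878 genes, and 1 higher, against 9.09%; with DESeq2 size factors 3 were lower and 2 higher, against 11% and 11.9%. Beside Ndufa4l2 above, Sdhb was at 90.4 and 97.5 CPM (log2 ratio -0.58) and Sdhd at 63.7 and 65.0 CPM (-0.38). The other 3 belong to complex I: Ndufs1 at 9.70 and 8.39 CPM (-0.61, -1.27 to -0.02), the core subunit Ndufs3 at 61.3 and 51.4 CPM (-0.32), and Ndufv3, an accessory subunit, at 196 and 199 CPM (-0.30). Ndufs1 overlaps Ino80dos and Eef1b2 on the opposite strand, and the sources used here do not say whether counting used the strand. The median was -0.11 for nuclear subunits, -0.06 for all genes and -0.02 for mitochondrially encoded genes. In cluster 2, Ndufa4l2 was the 1 subunit called (lower, against 5.08% of 6903 genes), and none was called higher, against 9.05%. There, 70 of 79 nuclear subunits lay above 0, with a median of 0.09 against 0.06 for all genes (0.01 and -0.03 with TMM scaling), and Sdhb (-0.07) and Sdhd (-0.09) were near the Dpp4-type level.

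**Figure D3:**
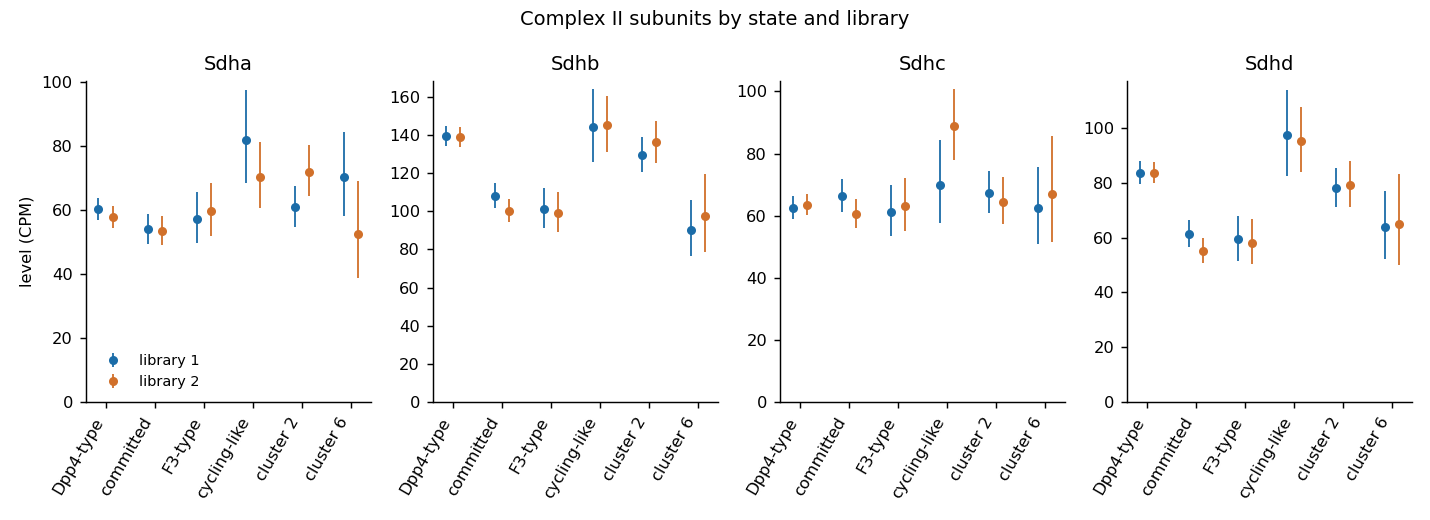
Level (CPM, linear axis from 0) of the 4 complex II subunits by precursor group, for library 1 (blue) and library 2 (orange), with 95% exact Poisson intervals. Sdhb and Sdhd were lower in committed, F3-type and cluster 6 cells of both libraries, where Sdha and Sdhc had levels nearer to those of Dpp4-type cells.

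Cycling-like cells had the highest summed level of nuclear subunits among the precursor groups, with 20898 and 20927 CPM in libraries 1 and 2 against 18948 and 18863 CPM in Dpp4-type cells. Of 79 nuclear subunits, 20 were called higher (25.3%), where 27.1% of 7351 genes were, and 0 lower, where 7.66% were. The share called higher was thus near that of all genes, and the median log2 ratio (0.16) was near that of all genes (0.13), while the mitochondrially encoded genes had a median of -0.02 with none called. The direction of the nuclear median depends on the scaling: it was -0.04 with TMM, which moved the median of all genes by -0.22, with 3 subunits called higher (Cox6b2, Cox7a2 and Ndufa5) and 5 lower, and 0.02 with DESeq2 size factors, with 4 higher and 1 lower. Of all genes, TMM scaling called 14.4% higher and 20.1% lower, and DESeq2 size factors 17.7% and 14.9%. The mitochondrially encoded median was -0.23 with TMM and -0.16 with DESeq2 size factors; a scaling factor moves every ratio alike and leaves the gap between the medians as it is.

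The largest ratio was that of Cox6b2, at 49.8 and 39.0 CPM in cycling-like cells against 12.5 and 12.4 CPM (log2 ratio 1.78, 1.53 to 2.03). Cox7a2, the common form of subunit 7A (chr9:79755361-79759878), was at 466 and 460 CPM against 282 and 290 CPM (0.69, 0.62 to 0.76). For both genes each cycling-like value lay above both Dpp4-type values, and those of Cox6b2 differed between the libraries by more than 1.2-fold. Complex I had 7 genes called, led by the accessory subunits Ndufa5 (200 against 139 CPM, 0.52) and Ndufb8 (191 against 137 CPM, 0.48), and including Ndufv2 (0.37) and Ndufab1 (0.36). In complex III, Uqcrfs1, the Rieske iron-sulfur protein (129 against 94.4 CPM, 0.45), and Cyc1, cytochrome c1 (80.6 against 60.9 CPM, 0.41), were called. Complex IV added Cox5a (182 against 134 CPM, 0.44), a subunit that binds Cox4i1, and complex V Atp5f1 of the peripheral stalk (278 against 210 CPM, 0.41). The remaining calls had log2 ratios from 0.30 to 0.36 and, named after their values were seen, were Ndufa10, Ndufs4 and Ndufa2 of complex I, Cox7c and Cox8a of complex IV, and Atp5b, Atp5g2, Atp5o and Atp5c1 of complex V, among them the catalytic beta subunit (Atp5b) and the central stalk (Atp5c1). In complex II it was Sdha that was called (82.0 and 70.4 CPM against 60.3 and 57.8 CPM, 0.34), whereas Sdhb (0.06) and Sdhd (0.20) were not. The summed cycling list was 1579 CPM here and at most 45.03 CPM in the other precursor groups, which is what named the group.

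Genes that build and serve the chain were taken from other lists. The assembly factor list includes the 4 Sdhaf genes. In committed cells it had 8 of 25 measured genes called lower and 1 higher (32% and 4%, beside 25.9% and 13.6% of all genes), with a median log2 ratio of -0.21 against -0.11 over all genes. Lowest were Uqcc2, needed for cytochrome b synthesis (185 against 329 CPM, -0.83), Sdhaf1 and Ndufaf7 (-0.52), while Ttc19, which acts on complex III, was higher (73.1 against 55.2 CPM, 0.41). The mitochondrial ribosome had 17 of 67 lower, a share of 25.4% that equals that of all genes within 1 percentage point, and 1 higher (Mrps6, 52.5 against 30.8 CPM, 0.77), with a median of -0.20. Lowest were Mrpl43 (19.96 against 32.4 CPM, -0.70), Mrpl19 (-0.64) and Mrpl49 (-0.60). Among cytochrome c and ubiquinone synthesis genes Coq9 (-0.48) was lower. Among 5 measured genes of mitochondrial DNA maintenance, Polg, the replicative polymerase, was higher (25.2 against 20.6 CPM, 0.29) and its accessory subunit Polg2 lower (7.97 against 10.1 CPM, -0.34). Among the regulators Gabpb1, a partner of the ETS factor GABPA, was the 1 of 8 called (31.9 against 18.3 CPM, 0.80). So subunits and the ribosome that translates the mitochondrially encoded ones differed in median (0.01 and -0.20) in the same cells, with -0.11 over all genes between them.

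In cycling-like cells 26 of 69 mitochondrial ribosome genes were called higher and 0 lower (37.7% higher, median 0.29), where 27.1% of all genes were higher and 7.66% lower with a median of 0.13. They were led by Mrpl18 (110 against 49.1 CPM, 1.17), Mrpl51 (0.98) and Mrpl9 (0.82). Of 29 assembly factors 10 were higher (34.5%, with a median of 0.17), led by Cmc2 (64.9 against 19.2 CPM, 1.76), Cox10, the heme O synthase (1.13), and Cox20 (0.72), and 1 lower (Uqcc3, -0.38). Of 6 genes of mitochondrial DNA maintenance and transcription 5 were higher, among them Tfam, which packages mitochondrial DNA (17.9 against 9.48 CPM, 0.91), Polg (0.53) and Ssbp1 (0.48), with a median of 0.45, while the transcripts of that DNA were not called. Cytochrome c itself (Cycs) was at 152 against 83.6 CPM (0.87), with Coq7 (0.82) and Coq6 (0.65) also higher. Among regulators Gabpb2 (0.65) and Nrf1 (0.46) were higher and Esrra lower (-0.63). These calls are by CPM: TMM scaling lowers every log2 ratio of this comparison by the same amount, which puts the median of the assembly factors below 0 and keeps that of the ribosome list above it. In F3-type cells the ribosome list had a median of -0.03 with 1 of 67 called each way (Mrpl49 0.36, Mrpl33 -0.42), where 16.3% of all genes were higher and 14.2% lower. Among regulators Esrra was higher (0.29) and Nrf1 lower (-0.42), and the assembly factors had 3 of 26 lower, a share of 11.5% that is near that of all genes (Uqcc2 -0.85, Cox17 -0.43, Coa5 -0.33) and 1 higher (Tmem126b, 0.44). Uqcc2 was lower in cluster 6 too (-0.59), with Atpaf2 (-0.89) and the copper chaperone Cox17 (-0.56) among 7 of 25 assembly factors called lower there (28%, beside 14.4% of all genes).

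The balance between the genomes was close to even in most states. In Dpp4-type cells mitochondrially encoded subunit UMIs were 0.942 and 0.958 of the nuclear-encoded ones in libraries 1 and 2. The ratio was 0.926 and 0.947 in committed cells, 0.927 and 0.973 in F3-type cells, 0.907 and 0.922 in cluster 2 and 0.966 and 1.01 in cluster 6. Cycling-like cells had 0.832 and 0.855, below both libraries of the other 5 precursor groups. Macrophage- or monocyte-like cells had 1.51 and 1.49, the highest, with 46 cells behind it, and endothelial-like cells 0.996 and 1.03. Over cells, the median ratio was 0.932 in Dpp4-type and 0.819 in cycling-like cells, and the 5th to 95th percentiles (0.634 to 1.46 and 0.549 to 1.24) overlapped widely. Leaving out mt-Atp8 and mt-Nd4l, whose reads may be shared with their neighbours, gave 0.943 and 0.840. Within a state, Spearman's rho over cells between the shares of UMIs from each genome was -0.01 for the 3008 Dpp4-type, 0.09 for the 1773 committed and -0.21 for the 653 F3-type cells (-0.14 and -0.27 in libraries 1 and 2). It was -0.08 in cycling-like cells, -0.06 in cluster 2 and -0.09 in cluster 6. These are descriptions only, since both shares are fractions of the same cell's total.

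**Figure D4:**
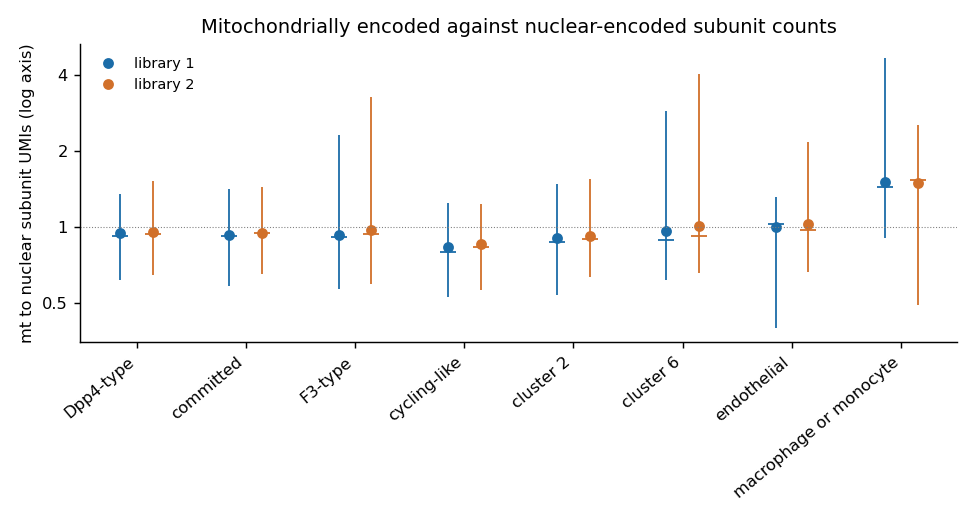
Ratio of mitochondrially encoded to nuclear-encoded subunit UMIs (log axis) by group, for library 1 (blue) and library 2 (orange). Points are ratios of summed counts, ticks are medians over cells and lines run from the 5th to the 95th percentile of cells; cycling-like cells sit at 0.832 and 0.855, and the F3-type and cluster 6 lines reach above 2.

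The ratio moved with depth. Cells under 7463 UMIs, the 10th percentile, had ratios of 1.28 (375 cells, library 1) and 1.74 (312 cells, library 2), against 0.918 and 0.923 in the deeper cells. Mitochondrially encoded subunits were at 23178 and 30270 CPM in the shallow cells and 17583 and 17848 CPM in the others, while nuclear ones were at 18131 and 17432 CPM against 19162 and 19347 CPM. A ratio over 2 was found in 214 cells, with a median of 4578.5 UMIs against 12634 in the rest. These cells had Hspa1a, a heat shock gene, at 563 CPM against 108 CPM, and the macrophage list at 571 CPM against 53.1 CPM; the part of either in the ratio was not tested. With the deeper cells of each library alone the ratio was 0.916 in Dpp4-type, 0.911 in committed and 0.844 in F3-type cells, and 0.857 in cycling-like cells, so the F3-type value then lay below the cycling-like one. At a clustering resolution of 1 the ratio was 0.895 in Dpp4-type and 0.888 in cycling-like cells.

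Isoform use differed between states for several complex IV subunits. Shares are given as percent of the UMIs of all genes of the isoform group, with 95% exact binomial (Clopper-Pearson) intervals that cover counting error only. Cox6b2 was 2.75% and 2.73% of the Cox6b group in Dpp4-type cells of libraries 1 and 2, 3.89% and 5.46% in committed, 4.94% and 5.81% in F3-type and 9.53% and 7.70% in cycling-like cells, with Cox6b1 making up the rest. Both libraries of each of the last 3 states lay above both Dpp4-type values. In cluster 2 (2.38% in each) and cluster 6 (2.61% and 1.86%) it was at or under the Dpp4-type share. Cells with a Cox6b2 UMI were 13.4% of Dpp4-type, 36.3% of cycling-like and 8.70% of macrophage- or monocyte-like cells. The median depths of these groups were 13260, 15021 and 6869 UMIs. After thinning to 7463 UMIs the shares were 8.55%, 24.9% and 14.3%. Thinning left out the cells under 7463 UMIs (375 and 312 in libraries 1 and 2), so the thinned shares cover fewer cells. The median depth of the macrophage- or monocyte-like cells is itself under 7463 UMIs, so their 2 shares come from unlike sets of cells.

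Within the Cox7a group, Cox7a2 was 39.0% and 41.8% in Dpp4-type cells and 52.8% and 53.5% in cycling-like cells, and Cox7a2l, whose protein takes part in joining complexes III and IV, was 59.6% and 56.5% and 46.5% and 44.9%. The order of these genes thus turned over in cycling-like cells: Cox7a2l was above Cox7a2 in the other 5 precursor groups and below it there. Its level in cycling-like cells was 395 CPM against 410 CPM in Dpp4-type cells, so the share moved with Cox7a2. Cox7a1 stayed between 1.01% (F3-type) and 1.59% (cluster 2). In the Atp5g group of complex V, whose 3 genes encode the same mature subunit c, Atp5g2 was 42.8% and 41.5% in Dpp4-type and 49.5% and 48.6% in cycling-like cells, Atp5g1 was 36.5% and 30.2% in these states, and Atp5g3 stayed between 20.9% and 22.6% in the 6 groups. Ndufa4l2 was 2.99% (2.71% to 3.28%) of its pair with Ndufa4 in Dpp4-type cells, 8.65% (7.62% to 9.76%) in F3-type cells, 8.02% (6.47% to 9.81%) in cluster 6 and 1.43% (1.10% to 1.82%) in cluster 2.

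**Figure D5:**
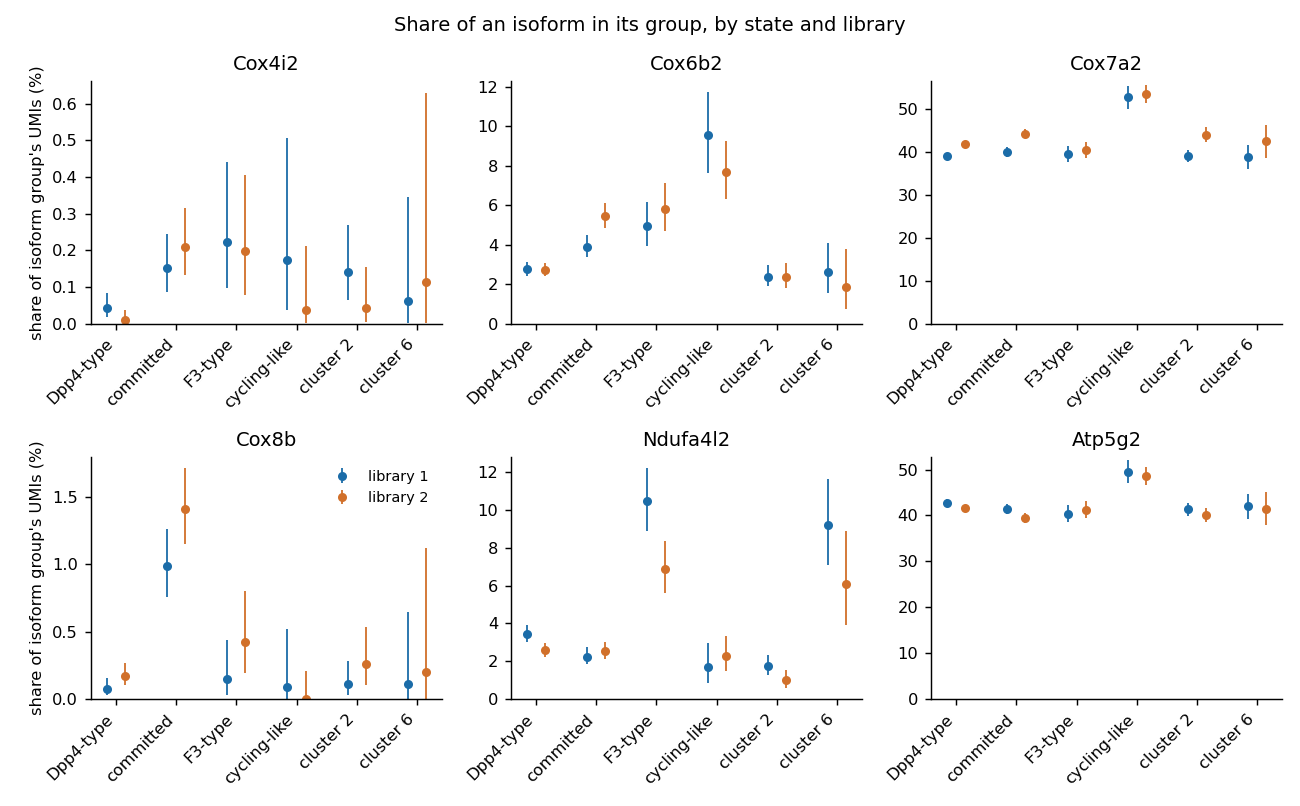
Share of 6 isoforms in the UMIs of their isoform group (percent, linear axes from 0) by precursor group, for library 1 (blue) and library 2 (orange), with 95% exact binomial intervals. Cox6b2, Cox7a2 and Atp5g2 were highest in cycling-like cells, Cox8b in committed cells, and Ndufa4l2 in F3-type and cluster 6 cells.

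The isoforms typical of other tissues were rare. Cox8b (chr7:140898945-140900446), the heart, muscle and brown fat form of subunit 8, was 0.984% and 1.41% of the Cox8 group in committed cells against 0.0789% and 0.174% in Dpp4-type cells. In CPM this was 6.41 and 9.70 against 0.434 and 0.924, a log2 ratio of 3.55 (2.96 to 4.198), in a gene under the 10 CPM needed for a call. Its 164 UMIs came from 88 of 1773 committed cells, 31 in library 1 and 57 in library 2, with at most 6 in a cell. Cells with a UMI were 4.96% of committed and 0.864% of Dpp4-type cells (4.13% and 0.471% after thinning), with median depths of 11393 and 13260 UMIs, so the state with the higher share was the shallower one. In the 88 cells Fabp4, a fatty acid binding protein of the adipocyte lineage, was at 1211 CPM against 638 CPM in the other 1685 (989 against 687 CPM in library 1, 1333 against 591 CPM in library 2). Pparg was at 21.4 and 20.04 CPM, and Adipoq had 45 UMIs in the 88 cells, all in 1 cell. Of the 5 brown adipocyte genes, Elovl3 had 1 UMI in the 88 cells, and Ucp1, Cidea, Dio2 and Zic1 had none. Ucp1 and Cidea, which define brown adipocytes, had 2 UMIs each in the other 1685 cells. At such levels no UMI in 88 cells cannot tell whether those cells differ in brown adipocyte genes. The groups of cells were chosen by a UMI of Cox8b, and these values are a description. In endothelial-like cells Cox8b had 37 UMIs in 4 cells, 36 of them in library 2, and Cox7a1 had 43 UMIs, 41 of them in library 2. That group also held adipocyte RNA: the adipocyte list summed to 292 CPM, against 11.2 CPM in committed cells. Of the brown adipocyte genes, Ucp1 was at 15.7 CPM and Cidea at 8.35 CPM, and Dio2 and Elovl3 had no UMI. The part of such RNA in the Cox8b and Cox7a1 counts was not tested.

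Cox4i2, the lung-type form of subunit 4 that is induced by low oxygen, was 0.0260% of its pair with Cox4i1 in Dpp4-type cells (10 UMIs), 0.181% in committed cells (39 UMIs) and 0.210% in F3-type cells (15 UMIs), and 8.63% in endothelial-like cells. In committed cells of libraries 1 and 2 it was 0.151% and 0.210%, against 0.0428% and 0.0101% in Dpp4-type cells, so the libraries did not overlap. Cox6a2, the muscle form of subunit 6A, had 33 UMIs in all kept cells, 0.0642% of its pair with Cox6a1. Cox7b2 and Cox8c, testis forms, had 0 UMIs in all kept cells, where a count of 0 allows up to 3 UMIs over those cells, of 20518 UMIs of the Cox7b group and 50437 of the Cox8 group.

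Between the libraries, the subunits differed little. Within Dpp4-type cells, with TMM scaling, the median log2 ratio of library 2 over library 1 was -0.005 over 79 nuclear subunits and 0.03 over 12 mitochondrially encoded genes, and within committed cells it was 0.03 and 0.08. No nuclear subunit passed 1.2-fold in both states in either direction, where 1.34% of 6851 genes were higher and 1.15% lower in both states. The 1 subunit called was mt-Atp8, at 82.7 CPM in library 2 and 68.4 CPM in library 1 in Dpp4-type cells (log2 ratio 0.27) and at 82.4 and 63.8 CPM in committed cells (0.37). Its neighbour mt-Atp6, which shares bases with it, had 3984 and 3878 CPM over all kept cells of libraries 2 and 1. Since neither library can be tied to a milk and each is 1 sample, these values compare libraries and not diets.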

How the data were processed

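Flow-sorted adipocyte precursor cells from 2 samples, 1 per milk, were measured by 10x Genomics 3′ single-cell RNA sequencing. The authors deposited 1 joined matrix of UMI counts for 27998 genes; Cell Ranger, Seurat 3.0.1 and the mm10 build are named per the submitters' processing notes, and the sources used here do not give how reads of overlapping genes or opposite strands were counted. No label ties a library to a milk, so the groups of the study were not compared.

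Cells with at least 500 genes and at most 10% mitochondrial counts were kept, which left out 4 and 0 barcodes for too few genes and 12 and 6 for mitochondrial counts in libraries 1 and 2. A doublet caller marked 6 barcodes in each library, too few to have worked, and those were left out too. Counts were scaled to 10000 per cell and clustered with scanpy 1.11.5 and leidenalg 0.10.2 (2000 variable genes, 30 principal components, 15 neighbours, resolution 0.5), with 639 genes, the respiratory chain genes among them, left out of the variable genes. A cluster was named where at least 3 markers and 25% of a list reached 20 CPM and 2-fold, with 2 or more markers among its 10 leading genes; this rule was set after the data were seen. Names and clusters were rebuilt here, and a difference from the study's own may come from that.

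UMIs were summed per group and library (Python 3.11.15, scipy 1.17.1) and given as CPM with exact Poisson intervals, ratios with conditional exact intervals and shares with Clopper-Pearson intervals. All are 95% intervals that leave out every error but that of counting. A gene was called at 1.2-fold in the same direction in both libraries, with at least 10 CPM in 1 of the sums. Genes named are those called, up to 10 in each direction, the isoform groups, the highest and lowest gene of each complex, the mitochondrially encoded genes and up to 3 genes per pathway list and direction; the complex II genes were given in full after their values were seen. On counts simulated for the comparison of committed with Dpp4-type cells over 6610 genes, 100 of 100 genes changed 1.5-fold were called (median log2 ratio 0.54), 100 of 100 changed 3-fold (1.54), and 20 of 6410 unchanged genes. These counts had Poisson error alone around 1 shared profile, with no variation between cells or libraries, so real data can give more false calls. No change nearer to 1.2-fold was simulated, and the recovery of such changes was not tested. Alternatives were TMM factors (edgeR 4.0.16) and DESeq2 1.42.0 size factors in R 4.3.3, other clusterings, filters, folds and level minimums, each library alone, and cells thinned to 7463 UMIs. Cells under that depth (375 and 312 in libraries 1 and 2) were left out of the thinned values. The genes and lists were chosen with earlier results of these data known. The result of 1 marker list of another cell type is not reported here.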

Additional observations from a re-analysis of the deposited data

How the results depend on the processing

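Of the medians, counts and genome ratios recomputed under other settings, 224 values were labelled as staying and 94 as moved. For single genes and shares 749 stayed, 313 moved and 3 of at least 1.2-fold changed sign. Medians were judged by the spread of their member genes, counts by a factor of 1.5 and shares by counting error. Genome ratios and log2 ratios of single genes were judged by the difference between the libraries, which is not a counting spread. For these, the value of a library taken alone stays almost by construction, so that part of the tallies says little about stability. The cause of a move was not tested except where the setting itself fixes it. No paired analysis was possible because no result comes from a test: there is 1 sample per milk. A call between states needed the fold within each library instead, while many ratios and most medians are given from both libraries together. In the following, a pair such as 5 and 2 gives nuclear subunits called higher and lower against Dpp4-type cells, and medians are log2 ratios of nuclear subunits unless said to be mitochondrially encoded. For settings other than the scalings the share of all genes called was not computed, so those counts cannot be set against all genes. At Leiden resolution 1 the Dpp4-type reference held 685 cells in place of 3008. With TMM factors, committed cells had 5 higher (median 0.084, mitochondrially encoded 0.12), F3-type cells 6 lower (-0.11), cycling-like cells 3 and 5 (-0.044, mitochondrially encoded -0.23), and cluster 2 a median of 0.011 (mitochondrially encoded -0.032). With DESeq2 size factors, committed cells had 8 and 1 (0.13, mitochondrially encoded 0.17), cycling-like cells 4 and 1 (0.021, mitochondrially encoded -0.16), and the medians were 0.040 in cluster 2 and -0.061 in cluster 6. At Leiden resolution 1, committed cells had 1 and 12 (-0.088), F3-type cells 20 lower (-0.20), cycling-like cells 7 and 4 (0.041), and the ratio of mitochondrially encoded to nuclear UMIs was 0.895 in Dpp4-type, 0.963 in committed and 0.888 in cycling-like cells. With 3000 variable genes F3-type cells had 6 lower (-0.092), with the members among the variable genes 8 lower (-0.12) and committed cells 6 higher, with no mitochondrial limit 8 lower (-0.11), and with predicted doublets kept 9 lower (-0.13). A fold of 1.5 left 0 higher and 0 lower in committed cells, 0 lower in F3-type cells, 2 higher in cycling-like cells and 1 either way in cluster 6. A level minimum of 50 CPM left 0 either way in cluster 2 and 0 higher in F3-type cells, and no minimum gave 4 either way in cluster 2, 4 higher in F3-type and 5 higher in committed cells. Library 1 alone gave 3 either way in cluster 2 (0.071), 7 lower in F3-type and 5 lower in cycling-like cells, and library 2 alone gave 3 in cluster 2 (0.13), 18 in cluster 6, 6 higher in committed and 5 lower in F3-type cells. Thinned cells gave 2 in cluster 2, a mitochondrially encoded median of -0.079 in cluster 6, and genome ratios of 0.908 in F3-type, 0.902 in cluster 2 and 0.925 in cluster 6. The thinned values leave out the cells under 7463 UMIs, which had higher genome ratios than the deeper cells. Medians over cells put the genome ratio at 0.932 in Dpp4-type, 0.889 in cluster 2, 0.907 in cluster 6 and 0.819 in cycling-like cells. Within committed cells the median of library 2 over library 1 was 0.027, and within all precursor cells 0.0076. Alternatives chosen after seeing the data were the reference and depth. Against the smaller Dpp4-type cluster alone, committed cells had 1 and 6 (-0.063), F3-type cells 7 lower (-0.13), cycling-like cells 10 and 3 (0.10), cluster 2 had 3 either way (0.039) and cluster 6 12 (-0.20), and against the larger one the F3-type median was -0.015. In cells above their library's median depth, cluster 2 had 2 and cluster 6 3 either way (median -0.072), the medians were 0.0061 in F3-type and 0.024 for mitochondrially encoded genes in cycling-like cells, and the genome ratios were 0.916 in Dpp4-type, 0.911 in committed, 0.844 in F3-type, 0.883 in cluster 2 and 0.903 in cluster 6 cells. Among ratios of at least 1.2-fold, changes of sign were those of Cox8b in F3-type cells with the members among the variable genes (-1.57), Cox8b in cycling-like cells in library 1 alone (0.54) and Cox6b2 in cluster 6 in thinned cells (0.084). Smaller values changed sign too, among them the nuclear medians above in committed, F3-type and cycling-like cells, Sdhb in cycling-like cells (0.058 by CPM, -0.15 with TMM, -0.085 with DESeq2 size factors), Sdhd there (0.20 by CPM, -0.0088 with TMM) and Ndufa4l2 in committed cells (-0.28 to 0.29). Over all settings run, the log2 ratio in committed cells ran from -0.68 to -0.30 for Sdhb and from -0.81 to -0.41 for Sdhd, that of Cox6b2 in cycling-like cells from 1.58 to 1.99, and that of Ndufa4l2 in F3-type cells from 1.37 to 2.10. Depth limits the genes under 10 CPM most: Cox8b, Cox4i2 and Cox6a2 have at most 39 UMIs each in any precursor group except Cox8b in committed cells.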
